A study of Macaca mulatta with 49 samples.

Results

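The cytosolic ribosomal protein genes were followed in central memory T cells (TCM) of rhesus macaques. They were chosen by gene symbol (RPL or RPS with a number, and RPLP1 and RPLP2, without kinases and pseudogenes) and by detection of a probe in at least 6 of the 24 samples of CD8 or of CD4 cells. This gave 64 genes of the 9350 tested across both cell types, 40 of the large and 24 of the small subunit. Of 76 such symbols with a probe on the array, 12 did not pass (RPL10, RPL22L1, RPL23A, RPL24, RPL28, RPL29, RPL34, RPL36A, RPL37, RPL3L, RPS21 and RPS23), and RPLP0, RPSA and RPS27A have no probe under their own symbols in the probe annotation used.

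The ribosome joins a small subunit, which reads the messenger RNA, and a large subunit, which forms the peptide bond and leads the new chain out through an exit tunnel. Its proteins are made in balanced amounts from messengers that begin with a 5′ terminal oligopyrimidine (TOP) tract, through which the kinase mTOR controls their translation. T cells build ribosomes when they are activated, and cytokines that sustain memory cells, interleukin 15 (IL-15) among them, act on that control.

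Total RNA came from CD8+ and CD4+ TCM sorted from the blood of 12 animals and was hybridised to Illumina BeadChips of human probes. Each animal was sampled before and after an antibody, which was anti-IL-15 in 6 animals and an IgG1 control antibody in the other 6, so there were 8 groups of 6 samples: CD8 or CD4 cells, anti-IL-15 or IgG1 animals, before or after treatment. The labels give neither the dose, the time since treatment nor the animals' age. The animal is the replicate, and in each group animals are numbered 1 to 6. Values are log2 normalized intensities, and differences are log2 differences.

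The sort was visible in the arrays: CD8A was higher in the CD8 samples by 7.16 and CD8B by 1.05, while the probe of CD4 did not pass detection and CD40LG, another marker of CD4 cells, has no probe under its symbol in the annotation used. Median raw intensity ran from 88 to 108 and the number of detected probes from 11444 to 14867 per array. CD8 samples came from 23000 to 116000 sorted cells and CD4 samples from 197000 to 958000. These ranges do not overlap, so in CD8 against CD4 the cell type and the number of sorted cells cannot be told apart. Each array reads RNA pooled from many cells, so less RNA of a gene in each cell and fewer cells that express it cannot be told apart. Equal masses of RNA were amplified, so a difference in total RNA per cell would not be seen. Human probes on macaque RNA can lose signal where the sequences differ, so a level is not compared between genes; brightness is used to choose a gene's probe and to describe where on the array's scale it lies. The probes of 33 of the 64 genes were in the brightest 1% of the array.

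Before treatment, ribosomal protein messengers were more often higher than lower in CD8 TCM. Of the 64 genes, 24 were higher in CD8 than in CD4 cells and 1 was lower (limma with the animal as a block, adjusted p below 0.05 over all genes), where 15.3% of all genes tested were higher and 20.8% lower. The median difference over the 64 genes was 0.19, beside 0.0086 over all genes, and 56 of the 64 (87.5%) were above 0, beside 51.3% of all genes. The median over the ribosomal protein genes was above 0 in each of the 12 animals. It was 0.46, 0.17, 0.12, 0.20, 0.06 and 0.15 in the animals later given anti-IL-15, and 0.32, 0.24, 0.09, 0.05, 0.11 and 0.19 in those later given IgG1.

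The size of this difference depends on how arrays are scaled and their background is corrected. With each array scaled to a common median in place of quantile normalization, the median of all genes moved to -0.12 before treatment, -0.17 after anti-IL-15 and -0.26 after IgG1. The share of higher among all genes called went from 42.3% to 15.3% before treatment, from 39.4% to 11.9% after anti-IL-15 and from 39.0% to 7.49% after IgG1. Relative to all genes, the ribosomal protein median was then 0.27, 0.49 and 0.45, against 0.18, 0.22 and 0.30 with quantile normalization. Before treatment, 15 ribosomal protein genes were higher and 2 lower (RPL22 and RPS27L) under that scaling, where 5.78% of all genes were higher and 32.1% lower. After anti-IL-15, 9 were higher and 1 was lower (RPL22), where 2.58% and 19% of all genes were. Among the genes named below, median scaling ended the calls of RPL7 (0.33, limma adjusted p = 0.062) and RPS15A (0.24, adjusted p = 0.21) before treatment. After anti-IL-15 it ended those of RPL39L (0.51, adjusted p = 0.10), RPS20 (0.40, adjusted p = 0.12) and RPL26L1 (0.41, adjusted p = 0.15), and after IgG1 that of RPL37A (0.69, adjusted p = 0.053). It also gave smaller values before treatment for RPL31 (0.45), RPS28 (0.46) and RPS13 (0.31), which still passed. The deposited log2 values gave smaller differences for 3 genes that still passed before treatment, RPL26 (0.25), RPL39L (0.33) and RPS13 (0.33), and after IgG1 they were 0.34, 0.53 and 0.68.

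The genes of the 5S particle and of the stalk did not pass the threshold. RPL5 and RPL11 bind 5S ribosomal RNA, and their free forms bind MDM2, the ligase of p53. RPL5 ranged from 8.78 to 9.32 in the 12 CD8 samples (median 9.04) and from 8.33 to 9.65 in the 12 CD4 samples (median 8.78), and RPL11 from 13.83 to 14.04 and from 13.85 to 14.13. Both genes overlapped between the cell types, with differences of 0.11 ± 0.11 (SE, 12 animals, limma adjusted p = 0.46) and 0.01 ± 0.08 (adjusted p = 0.93). RPLP1 and RPLP2 form the lateral stalk, which recruits elongation factors. Their differences were 0.12 ± 0.08 (limma adjusted p = 0.27) and 0.24 ± 0.11 (adjusted p = 0.11).

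In the large subunit, 17 of 40 genes were higher in CD8 cells, with a median of 0.25. RPL35, a protein at the rim of the exit tunnel, ranged from 9.15 to 10.77 in the 12 CD8 samples (median 9.38) and from 7.92 to 9.07 in the 12 CD4 samples (median 8.65). Every CD8 sample was above every CD4 sample, and the difference was 0.90 ± 0.16 (SE), or 1.86-fold (limma adjusted p = 2.1e-04, higher in 12 of 12 animals). RPL17, which lines the tunnel, ranged from 12.63 to 13.40 in CD8 cells (median 13.26) and from 11.97 to 12.84 in CD4 cells (median 12.47). Only 1 CD8 sample reached into the CD4 range, and the difference was 0.74 ± 0.09 (limma adjusted p = 6.2e-06, 12 of 12 animals). RPL31, another protein near the tunnel's end, ranged from 8.06 to 10.45 (median 8.54) against 7.43 to 8.78 (median 7.94). The groups overlapped, but RPL31 was higher in CD8 cells within each of the 12 animals, by 0.71 ± 0.17 (limma adjusted p = 0.0029).

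RPL7 differed by 0.57 (limma adjusted p = 3.9e-04, 10 of 12 animals). Its CD8 samples ran from 9.14 to 9.84 and its CD4 samples from 8.60 to 9.62, an overlapping pair of ranges. RPL26, dim throughout, differed by 0.59 (adjusted p = 0.0055, 11 of 12 animals). RPL13A, which in human monocytic cells also leaves the ribosome to silence inflammatory messengers, was higher by 0.46 in 12 of 12 animals (adjusted p = 8.8e-04).

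RPL22 was the 1 ribosomal protein gene that was lower in CD8 cells. It encodes an RNA-binding protein of the large subunit that in mice is needed for the development of alpha-beta T cells. Its level ranged from 9.72 to 10.86 in CD8 cells (median 10.27) and from 9.94 to 11.01 in CD4 cells (median 10.7). These ranges overlapped widely, yet RPL22 was lower in CD8 cells in 10 of 12 animals, by 0.34 on the log2 scale (SE 0.10, limma difference -0.34, adjusted p = 0.014).

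In the small subunit, 7 of 24 genes were higher in CD8 cells, with a median of 0.083. RPS28, which sits near the exit of the messenger channel, ranged from 8.90 to 10.15 in CD8 cells (median 9.14) and from 7.65 to 9.63 in CD4 cells (median 8.55). The ranges overlapped, and the difference was 0.72 ± 0.15 (SE, limma adjusted p = 9.4e-04, higher in 10 of 12 animals). RPS4X, a small-subunit protein encoded on the X chromosome, ranged from 12.30 to 13.23 (median 12.87) against 11.65 to 12.80 (median 12.26). It was higher in CD8 cells in 12 of 12 animals, by 0.47 ± 0.09 (limma adjusted p = 2.6e-04). RPS13 differed by 0.55 (adjusted p = 8.3e-04, 11 of 12 animals) and RPS15A by 0.49 (adjusted p = 0.0086, 10 of 12 animals). RPS3, which lies at the entry of the messenger channel, was at 13.32 to 13.86 in CD8 cells and 13.38 to 13.96 in CD4 cells. Its difference of -0.17 did not pass (limma adjusted p = 0.16, lower in 10 of 12 animals).

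**Figure D1:**
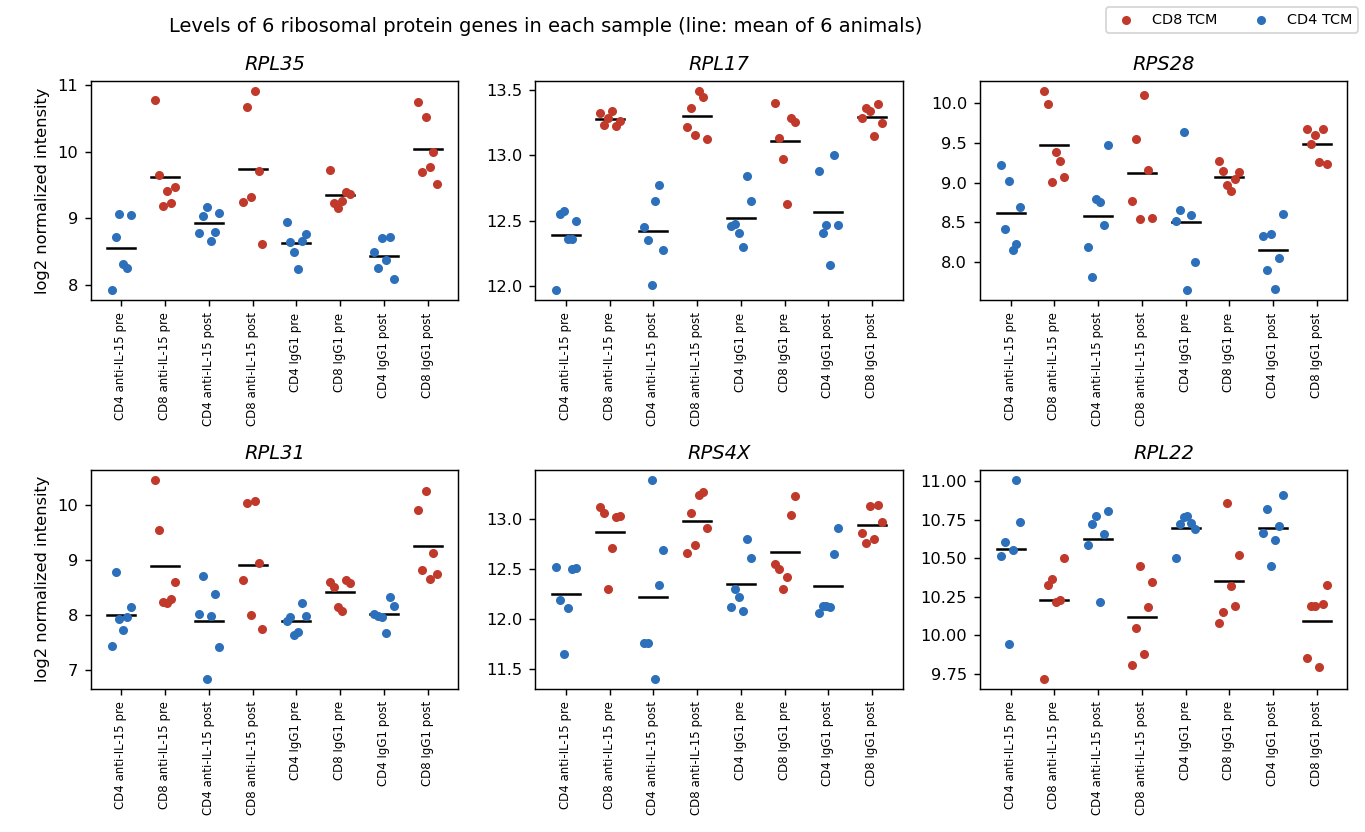
Log2 normalized intensity of 6 ribosomal protein genes (vertical axes) in each sample of the 8 groups (horizontal axis); points are animals and lines are the means of 6 animals. RPL35 in CD8 cells lay above CD4 cells in all 24 samples taken before treatment, and RPL22 lay lower in CD8 cells on average in each of the 4 pairs of groups.

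Some ribosomal proteins have related second genes (paralogs), and the products of some of these can replace the main form. Of 6 paralogs detected, RPL39L and RPL26L1 were higher in CD8 cells. RPL39L, the copy of the tunnel protein RPL39 that is best known from testis, ranged from 5.15 to 7.77 in CD8 cells (median 6.66) and from 5.39 to 6.75 in CD4 cells (median 5.85). Both groups began at about the same level and only CD8 samples reached above 7, with a difference of 0.61 ± 0.14 (SE, limma adjusted p = 0.0018, 10 of 12 animals). RPL26L1 differed by 0.36 ± 0.10 (adjusted p = 0.0066, 10 of 12 animals). RPS27L, a copy of RPS27 that p53 induces in human cells, differed by -0.19 ± 0.10 (adjusted p = 0.15). RPL36AL (0.10, adjusted p = 0.48), RPL7L1 (0.02, adjusted p = 0.90) and RPL10L (0.08, adjusted p = 0.61) were within their errors.

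The difference was larger for dimmer probes. Among the 33 genes with a probe in the brightest 1% of the array, 9 were higher in CD8 cells, none lower, and the median difference was 0.07. Among the 31 genes with dimmer probes, 15 were higher, 1 was lower and the median was 0.36. Among all other genes the median size of the difference, whatever its direction, was 0.086 for the 193 in the brightest class and 0.20 for the 9093 dimmer ones. In that brightest class 3.63% of the other genes were higher in CD8 cells and 19.7% lower, beside 27.3% and 0% of the ribosomal protein genes. Among dimmer probes 15.4% of the other genes were higher and 21.0% lower, beside 48.4% and 3.23% of the ribosomal protein genes. The part of a probe's brightness in these differences was not tested.

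**Figure D2:**
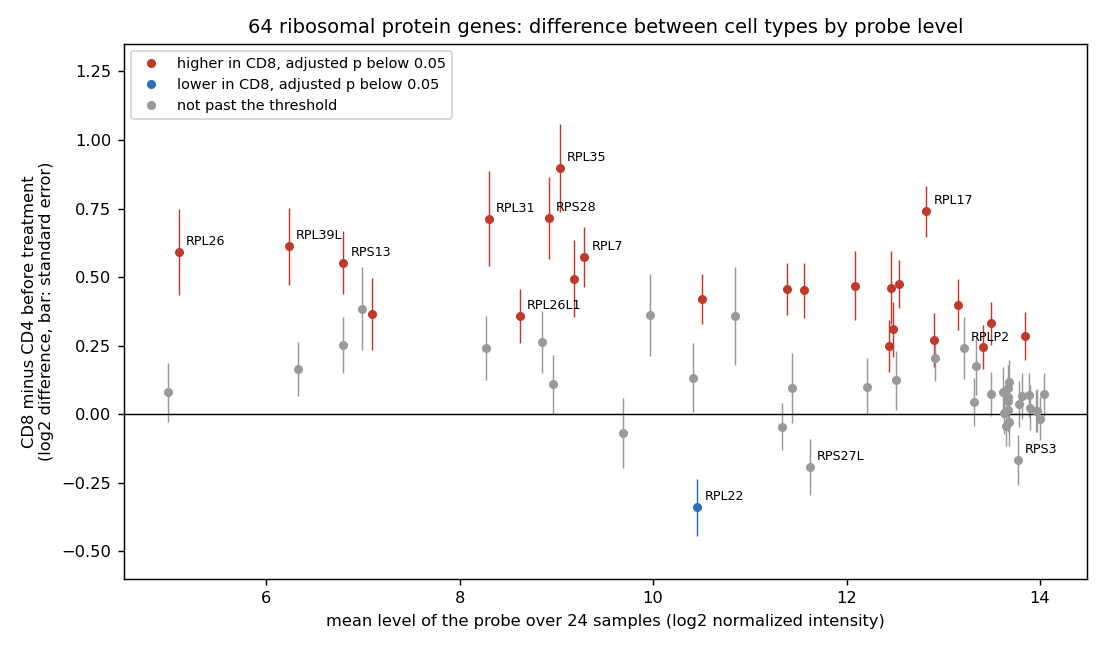
CD8 minus CD4 difference before treatment (vertical axis, log2, bars are standard errors) against the mean level of the probe over 24 samples (horizontal axis, log2 intensity) for the 64 genes; red points passed higher, the blue point passed lower. Most points at levels above 13.5 lie near 0, and RPL35, RPL17, RPS28 and RPL31 stand highest.

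Genes with several probes show how far a value depends on the probe. In 22 genes, 31 further probes passed detection and were tested in a fit over all probes. Before treatment, 11 of these 31 were higher in CD8 cells and 0 lower, where 7 of the 22 probes used were higher. In the fit by gene, 15.3% of all genes were higher and 20.8% lower. After anti-IL-15, 2 of the 31 were higher and 1 lower, beside 6.74% and 10.4% of all genes. After IgG1, 9 were higher and 1 lower, beside 13.2% and 20.7%. The shares over all probes are not given. Before treatment, RPL12 differed by 0.12 (limma adjusted p = 0.41) with the probe used and by 0.89 (adjusted p = 0.0016) with the other. RPS29 differed by 0.02 with the probe used and by 0.62 (adjusted p = 8.3e-04) and 0.10 with the others. The 3 probes of RPL17 gave 0.74, 0.54 and -0.35, of which the last did not pass (limma adjusted p = 0.11). RPS6, the ribosomal protein that S6 kinases phosphorylate, differed by 0.25 (adjusted p = 0.022) with the probe used and by -0.10 (adjusted p = 0.50) with the other.

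After anti-IL-15, 10 of the 64 genes were higher in CD8 than in CD4 cells and 1 was lower (limma, 6 animals), where 6.74% of all genes were higher and 10.4% lower. The median was 0.21 beside -0.016 over all genes, and 55 of the 64 differences were above 0. By animal it was 0.17, 0.47, 0.01, 0.43, 0.20 and 0.05. In the large subunit 8 of 40 were higher (median 0.30) and in the small subunit 2 of 24 (median 0.094).

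RPL17 was again clear in these animals, at 13.12 to 13.49 in CD8 cells (median 13.29) and 12.01 to 12.77 in CD4 cells (median 12.40). The groups did not overlap, and the difference was 0.88 ± 0.13 (SE, limma adjusted p = 0.0024, higher in 6 of 6 animals). RPL31 ranged from 7.74 to 10.06 against 6.84 to 8.70 and overlapped, but was higher in CD8 cells in 6 of 6 animals, by 1.01 ± 0.21 (limma adjusted p = 0.011). RPL30 (0.81), RPL39L (0.79), RPL13A (0.74), RPS20 (0.72), RPL26L1 (0.69), RPS15 (0.51) and RPL41 (0.41) were higher in 6 of 6 animals, and RPL27A (0.73) in 5 of 6, with limma adjusted p from 0.0086 to 0.044. RPL22 was lower in all 6 animals, with a difference of -0.51 ± 0.13 (limma adjusted p = 0.024). RPL35 reached 0.82 ± 0.30 and did not pass (limma adjusted p = 0.079), with animals spread from -0.47 to 2.25. The count moved with the animals included: it was 6 without animal 1, 5 without animal 2 and 6 without animal 5. RPL22 did not pass in any of these. The shares of all genes called in these smaller fits are not given.

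After IgG1, 30 of the 64 genes were higher in CD8 cells and 1 was lower (limma, 6 animals), where 13.2% of all genes were higher and 20.7% lower. The median was 0.29 beside -0.014 over all genes, and 51 of 64 differences were above 0. By animal it was 0.30, 0.14, 0.36, 0.35, 0.23 and 0.18. In the large subunit 22 of 40 were higher (median 0.40) and in the small subunit 8 of 24 (median 0.14). With arrays scaled to a common median, 14 were higher and 2 lower (RPL22 and RPL36), where 3.25% of all genes were higher and 40.2% lower.

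RPL35 ranged from 9.51 to 10.74 in CD8 cells after IgG1 (median 9.89) and from 8.08 to 8.72 in CD4 cells (median 8.43). The groups did not overlap, and RPL35 was 3.03-fold higher in CD8 cells, by 1.60 ± 0.14 (SE, limma adjusted p = 9.1e-06, 6 of 6 animals). RPS28 ranged from 9.23 to 9.68 (median 9.55) against 7.66 to 8.60 (median 8.19). Again no CD8 sample reached the CD4 range, and the difference was 1.34 ± 0.15 (limma adjusted p = 2.9e-05, 6 of 6 animals). RPS13, at 7.20 to 7.85 against 5.99 to 6.82, differed by 1.12 ± 0.14 (adjusted p = 7.8e-05) with no overlap. RPL31, at 8.65 to 10.25 against 7.68 to 8.33, differed by 1.23 ± 0.20 (adjusted p = 5.0e-04), also with no overlap.

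RPL22 ranged from 9.79 to 10.33 in CD8 cells (median 10.19) and from 10.45 to 10.91 in CD4 cells (median 10.69). Every CD8 sample was below every CD4 sample, with a difference of -0.60 ± 0.12 (SE, limma adjusted p = 0.0019, lower in 6 of 6 animals). RPL37A, which carries a zinc finger, differed by 0.98 ± 0.33 (adjusted p = 0.033) with animals spread from -1.01 to 2.41, and did not pass without animal 1, 2, 3 or 4. RPL39L (0.95), RPS15A (0.93), RPS26 (0.90, beside the messenger channel's exit), RPL26 (0.86) and RPL13A (0.75) passed with limma adjusted p from 4.1e-04 to 0.0052.

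Of the 64 genes, 9 were higher in CD8 cells in all 3 comparisons: RPL13A, RPL17, RPL26L1, RPL27A, RPL30, RPL31, RPL39L, RPS15 and RPS20. RPL22 was lower in all 3. These are 14.1% and 1.56% of the 64 genes, beside 4.72% of all genes higher and 8.84% lower in all 3. In at least 1 comparison 32 were higher (50%, all genes 20.4%), and 31 passed in none (48.4%, all genes 53.8%). The animals after treatment are the same as before it, so these calls are not independent. After IgG1 and not before treatment, 8 passed higher (RPL14, RPL21, RPL35A, RPL37A, RPL39, RPL9, RPS26 and RPS7), and RPL41 and RPS6 passed before and not after IgG1. The first comparison holds 12 animals and the other 6, and their difference was not tested; the change of the gap within the IgG1 animals is tested further on.

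**Figure D3:**
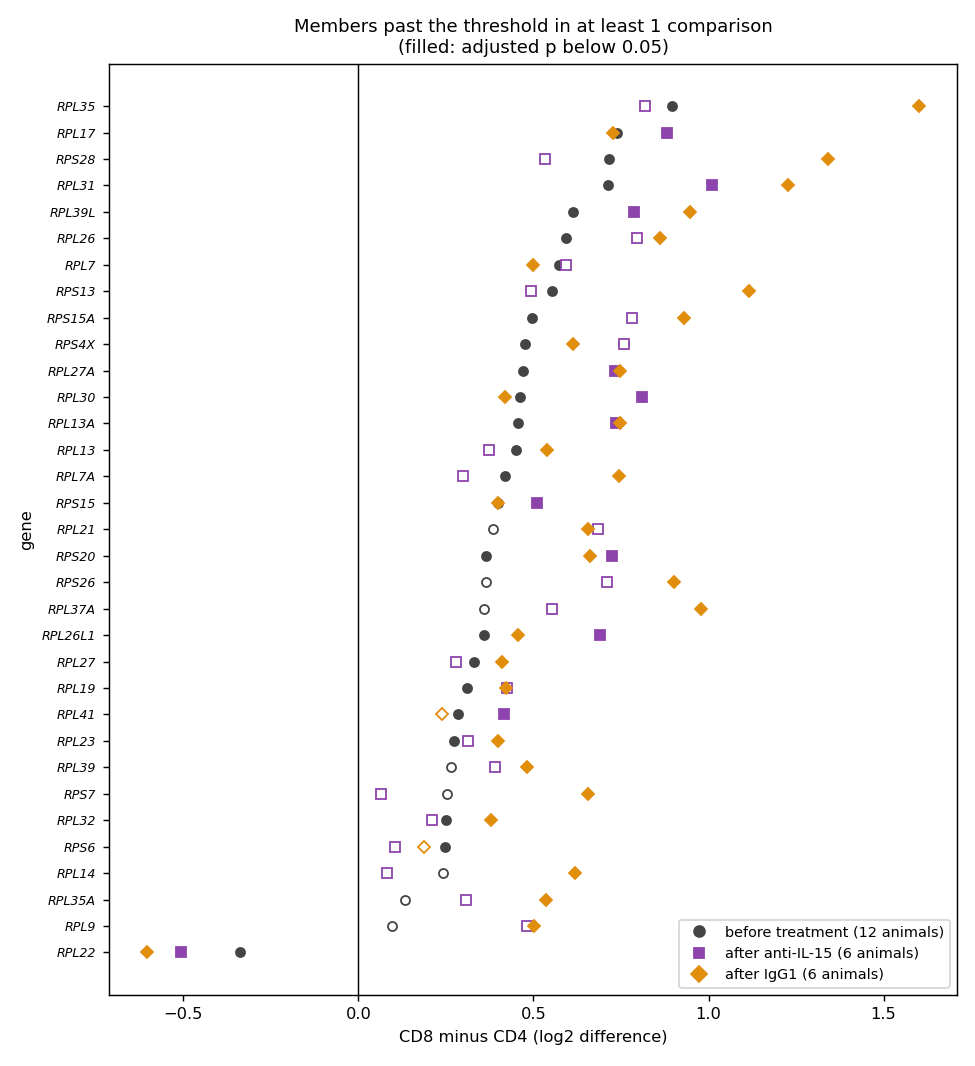
CD8 minus CD4 difference (horizontal axis, log2) of the 33 ribosomal protein genes past the threshold in at least 1 of 3 comparisons: before treatment (12 animals), after anti-IL-15 (6 animals) and after IgG1 (6 animals); filled symbols passed. RPL22 lies at -0.34 to -0.60 and the other genes at or above 0.07, with the widest gap between comparisons at RPS28 and RPL35.

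No ribosomal protein gene passed the threshold after either antibody. In CD8 cells after anti-IL-15, 0 of 64 genes passed (limma with the animal as a block), where 0.174% of all genes did (0.151% higher and 0.0232% lower). The unadjusted p was below 0.05 for 1 of the 64 (1.56%), beside 9.43% of all genes. The median change was 0.0058 beside -0.017 over all genes, and 34 of 64 changes were above 0. By animal the median was -0.27, 0.07, 0.01, 0.24, 0.09 and -0.10. That spread reached both sides of 0.

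RPL5 had the lowest p after anti-IL-15. In CD8 cells it was at 9.07 to 9.32 before (median 9.14) and at 8.505 to 9.20 after (median 8.86). Its levels overlapped and were lower after treatment in 5 of 6 animals, with a change of -0.32 ± 0.12 (SE, limma unadjusted p = 0.018, adjusted p = 0.42). RPS28 changed by -0.37, RPL10L by -0.20, RPL39L by 0.27 and RPL26L1 by 0.23, each with an adjusted p above the threshold. Among markers of natural killer (NK) cells, 8 of 10 were detected in the same comparison and 2 passed higher, GNLY (1.21) and NKG7 (0.98). The summed level of these 8 ran from 9.68 to 10.55 in CD8 cells before anti-IL-15 and from 10.42 to 11.10 after it. The 9 monocyte markers had a median change of 0.57 with 8 of 9 above 0 and none called. The part of these cells or genes in the ribosomal values was not tested.

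In CD8 cells after IgG1, 0 of 64 genes passed and 0% of all genes did. At an unadjusted p below 0.05 there were 11 ribosomal protein genes (17.2%), beside 7.03% of all genes, and all 11 were higher after IgG1. The median change was 0.093 beside -0.028 over all genes, and 49 of 64 changes were above 0. By animal the median was 0.09, 0.06, 0.32, 0.18, 0.07 and 0.00, and the highest value belonged to animal 3.

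RPL30, which in CD8 cells was at 11.99 to 12.97 before IgG1 (median 12.69) and at 12.85 to 13.24 after it (median 13.16), had the lowest p. Its ranges overlapped at their ends and 5 of 6 animals were higher after IgG1, by 0.46 ± 0.13 (SE, limma unadjusted p = 0.0028, adjusted p = 0.69). RPL9 was higher after IgG1 in 6 of 6 animals, by 0.55 ± 0.17 (unadjusted p = 0.0060, adjusted p = 0.69). RPS13 was at 6.67 to 7.35 before and 7.20 to 7.85 after, higher in 6 of 6 animals by 0.62 ± 0.20 (unadjusted p = 0.0065, adjusted p = 0.69). RPS20 (0.50) and RPS26 (0.69) were higher in 5 of 6 animals. These are descriptions, since none passed. Erythroid markers, 4 of 6 detected, summed to 8.53 to 13.70 in these CD8 samples before IgG1 and to 8.97 to 14.09 after it, without ALAS2 and SLC4A1. The median change of these 4 markers was 0.81, with 4 of 4 above 0 and none called. Within animals the sum changed by 0.67, 0.44, 2.72, 1.353, -0.58 and 0.88. Animals 3 and 4, with the highest ribosomal medians, also had the highest erythroid changes here. The other groups were mixed. In CD4 cells after anti-IL-15, animal 6 had both the highest erythroid change (1.59) and the highest ribosomal median (0.035). In CD8 cells after anti-IL-15, animal 2 had the highest erythroid change (2.96) with a ribosomal median of 0.07. Animal 4, with the highest ribosomal median there (0.24), had an erythroid change of -0.07. In CD4 cells after IgG1, animal 3 had the highest erythroid change (1.88) with a ribosomal median of 0.018. The part of erythroid cells was not tested.

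The change after anti-IL-15 was next set against that after IgG1 in CD8 cells: 0 of 64 genes passed (limma), 0% of all genes passed, and 5 had an unadjusted p below 0.05 (7.81%), beside 7.57% of all genes. The median difference of the changes was -0.088 beside 0.0073 over all genes, and 18 of 64 were above 0. It turned to 0.043 when arrays were scaled to a common median, where all genes moved to 0.14, so that relative to all genes it was -0.096 with quantile normalization and -0.0998 with median scaling. The largest differences were for RPS26 (-0.82), RPS28 (-0.78), RPL9 (-0.69), RPL27A (-0.61) and RPL30 (-0.50), with limma adjusted p of 0.61 to 0.64. Marker lists moved in the same comparison without a call: the 9 monocyte markers had a median of 0.78 (8 of 9 above 0) and the 4 erythroid markers one of -0.69 (0 of 4 above 0). Their part was not tested.

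In CD4 cells, 0 of 63 genes passed after anti-IL-15, where 0.0336% of all genes did, and 0 of 63 after IgG1, where 0% did. The medians were -0.038 (all genes -0.028) and 0.025 (all genes -0.0014). Unadjusted p was below 0.05 for 1 gene after anti-IL-15 (1.59%, all genes 5.67%) and for 0 after IgG1 (all genes 3.51%). RPL35 was that gene, at 7.92 to 9.07 before (median 8.51) and 8.66 to 9.17 after (median 8.92). It was higher after anti-IL-15 in 6 of 6 animals, although the ranges overlapped, by 0.37 ± 0.15 (SE, limma unadjusted p = 0.021, adjusted p = 0.77). After IgG1 the lowest p was that of RPS28 (-0.36, adjusted p = 1.00). The difference between the antibodies had a median of -0.032, 0 genes passed of 63, 0% of all genes passed, and RPL35 had the lowest p (0.56, unadjusted p = 0.015, adjusted p = 1.00).

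**Figure D4:**
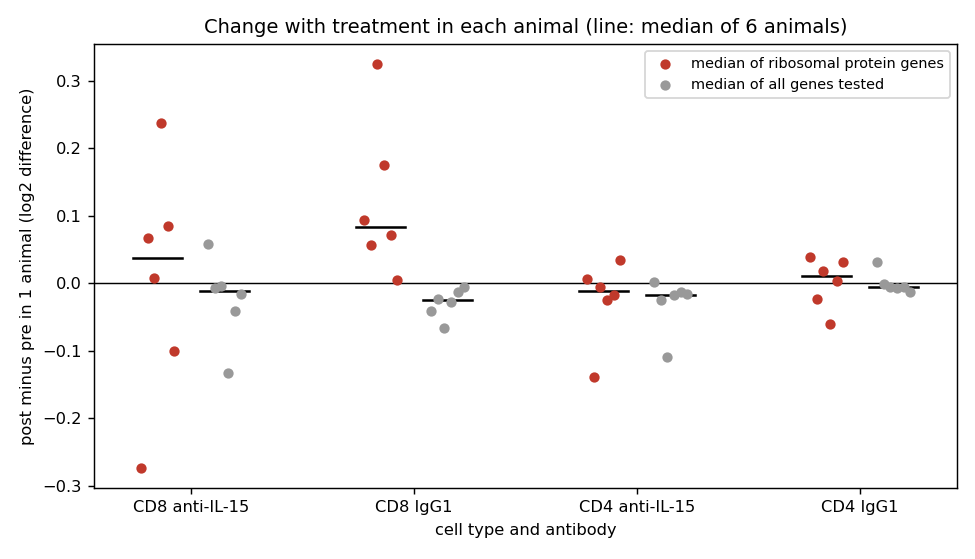
Median change after minus before treatment (vertical axis, log2) over the ribosomal protein genes (red) and over all genes tested (grey) in each animal, for the 2 cell types and antibodies (horizontal axis); lines are medians of 6 animals. The red points spread from -0.27 to 0.32 in CD8 cells and from -0.14 to 0.04 in CD4 cells.

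Whether the gap between the cell types itself changed was tested over all 48 samples. After anti-IL-15, 0 of 64 genes passed and 0 had an unadjusted p below 0.05, where 0% and 3.63% of all genes did, and the median change of the gap was 0.018 beside 0.0047 over all genes. Under scaling to a common median it was 0.24 beside 0.064 over all genes. After IgG1, 0 of 64 passed, 0% of all genes passed, and 6 had an unadjusted p below 0.05 (9.38%), beside 4.37% of all genes. The median was then 0.097 beside -0.040 over all genes, with 49 of 64 above 0. Under scaling to a common median it was -0.054 beside -0.23 over all genes. RPL35 (0.87), RPL9 (0.70) and RPS13 (0.74) had a larger gap after IgG1 in 6 of 6 animals and RPS26 (0.91) in 5 of 6, with limma adjusted p = 0.99 for each.

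The 2 sets of animals were also compared before treatment. No ribosomal protein gene passed in either cell type by limma (0% of all genes passed), 3 of 64 had an unadjusted p below 0.05 in CD8 cells (all genes 6.402%) and 5 of 63 in CD4 cells (all genes 11.5%). The lowest p belonged to RPL5 in CD8 cells (0.28 higher in the anti-IL-15 animals, limma adjusted p = 0.72) and to RPS27L in CD4 cells (0.43 higher, adjusted p = 0.27). RPL5, the gene with the lowest p after anti-IL-15, was thus higher in value in those animals beforehand.

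The spread over samples differed between genes, and the genes with the smallest spread had bright probes, for which differences were smaller among other genes too. In CD8 cells the SD over 24 samples was smallest for RPS6 (0.058), RPL11 (0.063) and RPL7L1 (0.066), and largest for RPL14 (1.66), RPL39L (0.79), RPL37A (0.78), RPL31 (0.77) and RPS26 (0.69). In CD4 cells RPS12 (0.089), RPS14 (0.091) and RPS18 (0.092) had the smallest SD and RPL14 (1.58), RPLP2 (0.81), RPL36AL (0.80), RPL37A (0.73) and RPL18 (0.58) varied most. Over the 24 samples the median pairwise r between ribosomal protein genes was 0.16 in CD8 cells and 0.030 in CD4 cells, beside 0.0062 and 0.0045 over all genes; the samples share animals, time points and array scaling. RPL35 and RPL31, 1 pair of many, were highest in the same 5 CD8 samples, each of a different animal. RPL35 was 10.77 in anti-IL-15 animal 1 before treatment. It was 10.66 and 10.91 in anti-IL-15 animals 2 and 4 after treatment, and 10.74 and 10.52 in IgG1 animals 1 and 3 after treatment. RPL31 was also high there, at 10.45, 10.03, 10.06, 9.90 and 10.25, above the other CD8 samples, of which the highest was anti-IL-15 animal 2 before treatment (9.54). In the same 5 samples and order, 49, 47, 50, 47 and 41 of the 64 genes were above their own CD8 mean. Their median deviation was 0.17, 0.17, 0.17, 0.11 and 0.092, beside -0.064, -0.016, -0.12, -0.036 and -0.036 over all genes. Among the other CD8 samples, IgG1 animal 5 after treatment reached 46 of 64.

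A few genes differed mainly between animals. After the mean of each cell type was taken off, 96.96% of the variance of RPL14 lay between the 12 animals, 94.2% for RPL36AL, 89.2% for RPL18, 88.0% for RPLP2 and 81.7% for RPL13. The median over the 64 genes was 36.1%, beside 32.1% over all genes, and 5 of 64 (7.81%) were above 80%, beside 2.37% of all genes; that limit was chosen after the values were seen.

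RPL14, a large-subunit protein, averaged 8.96, 9.78, 9.03, 10.20, 6.14 and 6.27 over the 4 samples of the anti-IL-15 animals, and 9.08, 5.74, 6.49, 9.76, 9.25 and 8.74 in the IgG1 animals. All samples of the 4 low animals were at or below 7.02 and all samples of the others at or above 8.35, in both cell types and at both times. RPL36AL, the paralog of RPL36A, averaged 10.58 in anti-IL-15 animal 3 and 10.95 in IgG1 animal 3, and 12.07 to 12.76 in the other 10. RPL18 averaged 12.68 to 12.87 in anti-IL-15 animals 1, 3, 4 and 6 and IgG1 animal 5, and 13.71 to 13.82 in the other 7. The stalk gene RPLP2 averaged 12.26 to 12.45 in anti-IL-15 animals 1, 2 and 3 and IgG1 animal 3, and 13.66 to 13.77 in the other 8.

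The low animals were not the same from gene to gene. The second probes of RPL14 (5.15 to 6.29 by animal) and RPL36AL (7.17 to 7.63) did not repeat the order of the animals: IgG1 animal 2, the lowest for RPL14, was at 5.19 and anti-IL-15 animal 6, also low, was the highest at 6.29. That RPL14 probe was dim, with a mean level of 5.59 and detection in 24 of 24 CD8 but 17 of 24 CD4 samples. A probe this dim may not show such differences, so it is a weak check. The part of sequence differences between animals under a human probe was not tested.

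**Figure D5:**
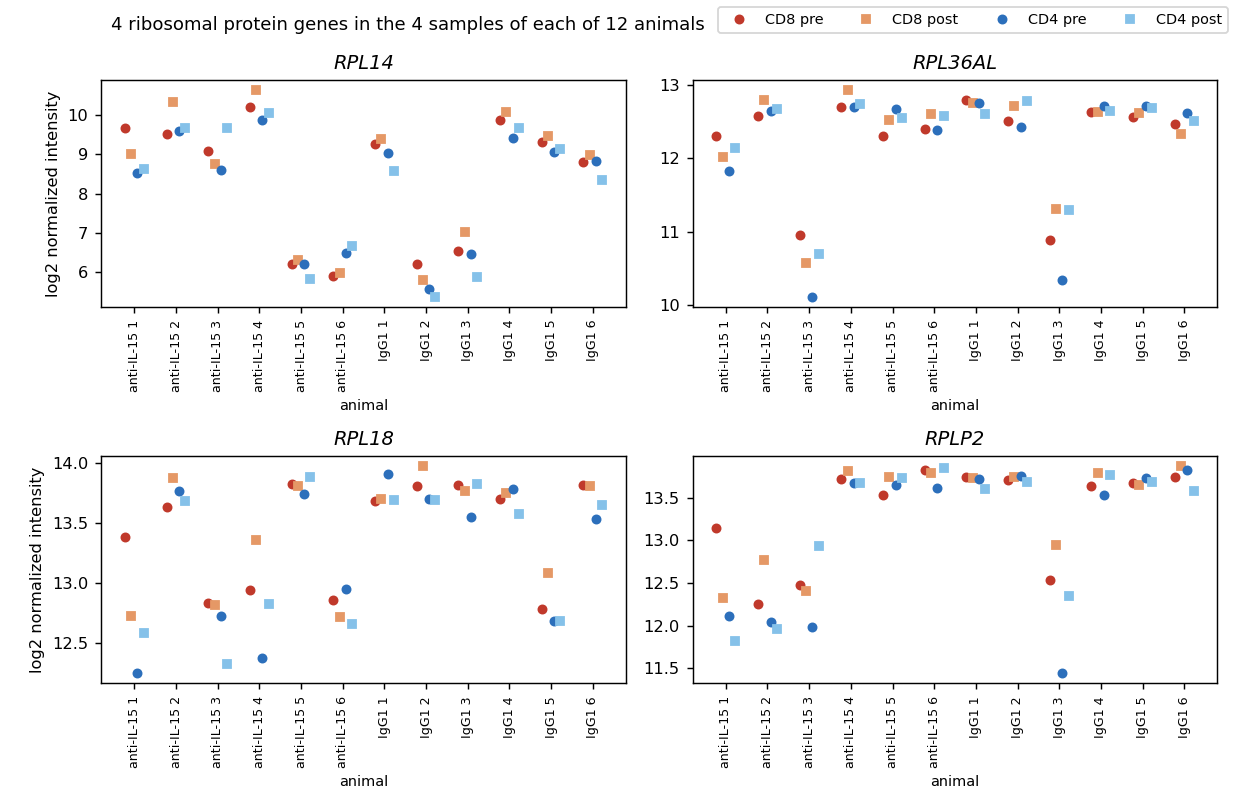
Log2 normalized intensity (vertical axes) of RPL14, RPL36AL, RPL18 and RPLP2 in the 4 samples (CD8 and CD4, before and after) of each of the 12 animals (horizontal axes). In RPL14 the 4 samples of anti-IL-15 animals 5 and 6 and IgG1 animals 2 and 3 lie together below the other animals.

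Likeness over the 48 samples was described for the paralogs RPS27L and RPL36AL. RPS27L was most like COA1 (r = 0.64), PSMB3 (0.63) and NDUFAF2 (0.61), and RPL36AL was most like TIA1 (0.74), PLPP2 (0.68) and GBP1P1 (0.68). The 48 samples are 4 of each animal, so these values carry what the animals share.

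Other parts of the translation machinery were counted in the same way before treatment, beside 15.3% higher and 20.8% lower among all genes. FAU, a small-subunit protein outside the symbol rule, was higher in CD8 cells by 0.30 (limma adjusted p = 0.016). Of 25 other messengers known for a TOP tract, 5 were higher and 4 lower, with a median of -0.020; the noncoding ZFAS1 (0.96) and SNHG8 (0.59) were higher and HNRNPA1 (-0.87) lower. Of 34 initiation factors, 7 were higher and 9 lower (median -0.024), among them EIF4H (-0.71), EIF3J (-0.89), EIF3A (-0.62) and EIF2A (-0.55). Of 11 elongation and termination factors 1 was higher (EEF1D, 0.55) and 1 lower (the recycling factor ABCE1, -0.85).

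Of 54 ribosome assembly genes 5 were higher and 12 lower (median -0.0099), including UBTF (0.89), a factor of RNA polymerase I, HEATR1 (0.57) and MRTO4 (0.69) higher and UTP4 (-0.41) lower. Of 24 genes of mTOR and MYC control 3 were higher and 3 lower; SESN3 (-1.04) and SESN1 (-0.92), inhibitors of mTOR, and the S6 kinase gene RPS6KB1 (-0.63) were lower, and LAMTOR4 (0.39) was higher. Of 65 proteins of the mitochondrial ribosome 16 were higher and 4 lower (median 0.13), among them MRPL53 (1.09), MRPL24 (0.56) and MRPS11 (0.53) higher and MRPL19 (-0.72) lower. Of 8 genes of RNA decay and the integrated stress response ASNS (-0.76) and EIF2AK2 (-0.79) were lower and none higher. No gene of these lists passed after either antibody.

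Markers of other cells differed between the sorted populations beside these results. Of the monocyte list 9 of 12 were detected and 5 were higher in CD8 cells before treatment, LYZ by 1.43 and CD14 by 0.97; the summed level over all samples was 10.6 to 13.0 in CD8 and 10.3 to 11.5 in CD4 samples, with S100A8, FCER1G and MS4A7 not detected. Of the B cell list 4 of 8 were detected, CD79B was higher by 2.06 and CD79A by 0.61, and the sum was 8.22 to 9.45 against 7.15 to 8.09. Of the NK list 8 of 10 were detected, GNLY was higher by 2.96, KLRD1 by 2.40 and NKG7 by 1.58, and the sum was 9.68 to 11.5 against 8.86 to 9.58. Cytotoxic genes belong to CD8 T cells too. Of the 4 erythroid markers detected, 0 were called before treatment (median 0.23), 2 were higher in CD8 cells after anti-IL-15 (median 0.83) and 2 after IgG1 (median 0.56). The part of other cells in the ribosomal differences was not tested.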

How the data were processed

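The authors deposited mean bead intensity per probe and array in whole numbers, without background correction, and beside it a detection p-value against that array's own background, per the file headers. The authors also deposited log2 values, of which 99.8% were within 0.001 of a log2 quantile-normalized intensity recomputed here. Limma is named in the submitters' processing notes, with no version or role given. There were 47230 probes on 49 arrays of 48 samples, and the 2 arrays of the repeated sample (r = 0.988) were averaged. Probes with a reading of 0 (13) were left out. Of the probes 30113 carry 1 gene symbol, 8 several and 17109 none, the last 2 kinds being left out. The number of arrays limits the precision.

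Intensities were background corrected from the detection p-values, quantile normalized and put on the log2 scale with the neqc function (offset 16; limma 3.58.1 under R 4.3.3); figures used Python 3.11.15 with matplotlib 3.10.9. Detection p-values had to be below 0.05 in 6 of 24 samples of CD8 or CD4, and a gene was read from its brightest such probe. Fits covered 8622 genes for CD8, 8919 for CD4 and 9350 for the 2 together. RPL26 was not in the CD4 fits. Fits used lmFit and eBayes over all genes with the animal as a block, since the labels name the animal and so pair the samples; that block was not used between antibody groups at baseline. Calls needed a Benjamini-Hochberg adjusted p under 0.05 across every gene of the fit. The fits were also run on simulated data with independent noise. Those data held no animal effects and no scaling differences between arrays, so they do not test these. Changes over time were fitted on 24 samples of a cell type, CD8 against CD4 on the samples of that time, and changes of the gap on all 48 samples with animal by cell type as the block.

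The genes named were the 10 largest in each direction past the threshold, or the 5 with the lowest p where fewer than 5 passed. Paralogs, stalk and 5S genes, genes with several probes, extremes of spread and up to 4 genes of each other list were added. Some others, such as RPL13A and RPS3 before treatment, were named outside these rules. Genes of the parts on single animals were chosen after their values were seen. The genes and lists were chosen with earlier results of these data known. The misspelt time point on control samples was read as after treatment. No sequences are given, and no coordinates, since the array table names no build. Alternatives were the deposited log2 values, normexp with offset 50, median scaling, no filter or detection in 12 of 24 samples, the mean of a gene's probes, array weights, a robust fit with a variance trend, sorted cell number as a covariate, no block, a random block and each animal left out.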

Additional observations from a re-analysis of the deposited data

Results flagged for a closer look

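Over 92 groups of 6 values, a single animal stood apart by Dixon's criterion in 9. These were 0 of 8 groups of samples, 2 of 10 groups of animal medians and 7 of 74 groups for named genes; with a 95% critical value some are due to chance alone. The median change of the ribosomal protein genes in CD4 cells after anti-IL-15 was -0.139 in animal 2, with the nearest animal at -0.025. The median CD8 minus CD4 difference before treatment was 0.465 in anti-IL-15 animal 1, with the next at 0.20. In that animal RPL35 differed by 2.84 (next 1.10) and RPL31 by 3.03 (next 0.76). RPL7 differed by -0.0011 in anti-IL-15 animal 5 before treatment, where the nearest was 0.62, and RPS4X by 0.87 in anti-IL-15 animal 2, where the nearest was 0.65. After anti-IL-15, RPL26L1 differed by 1.503 in animal 3 (nearest 0.69). After IgG1, RPL39L differed by -0.63 in animal 6 (nearest 1.09) and RPL13A by 0.36 in animal 5 (nearest 0.71).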

How the results depend on the processing

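Of the recomputed counts and medians, 821 stayed within 1.5 times the reported count, or within 1 SD over animals of the reported median, and 25 moved. With median scaling, higher and lower calls for CD8 against CD4 became 15 and 2 before treatment and 14 and 2 after IgG1 (median 0.18). The medians became -0.12 in CD4 after anti-IL-15 (all genes -0.066), 0.13 in CD4 after IgG1 (all genes 0.081), -0.25 for the antibody difference in CD4 (all genes -0.15), and 0.24 and -0.054 for the change of the gap after anti-IL-15 and IgG1. With sorted cell number as a covariate the CD4 antibody difference was -0.087. The deposited table gave 2 lower after anti-IL-15 and 2 after IgG1. A variance trend gave 16 higher and 2 lower after anti-IL-15 and 3 lower after IgG1. Without single animals the calls were 21 to 27 higher and 1 to 2 lower before treatment, 5 to 13 higher and 0 to 1 lower after anti-IL-15, and 21 to 30 higher after IgG1. Restricted to the 6 anti-IL-15 animals before treatment, chosen after seeing the data, there were 11 higher and 0 lower. Without the replicate block, which pairs samples of an animal, 20, 7 and 25 genes were higher before treatment, after anti-IL-15 and after IgG1. Apart from median scaling, the shares of all genes called under these settings are not given. The counts can therefore move with the calls over all genes. Calls for the change after treatment stayed at 0 in each alternative run. Among named genes 25 calls were lost without 1 animal and 27 under other settings, and 2 values turned: in CD4 after anti-IL-15, RPL9 was 0.026 with the mean of its probes and RPS15A 0.093 with sorted cell number. The cause was not tested. Signal over background limits RPL26 and RPL10L, the dimmest genes.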
